A study of Mus musculus with 4 samples.

Results

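The 10 genes described here are the core transcriptional clock and its main output factors: Arntl and Clock (the activators, or positive limb), Per1, Per2, Per3 and Cry1 (the repressors, or negative limb), Nr1d1 and Nr1d2 (the nuclear receptor loop), and Dbp and Hlf (the output). They were chosen by gene symbol, as every probe other than a control that the scanner files name for one of these genes. This gave 13 probes of 39429, for 10 of 30175 gene names on the array. The study compared mice of the C57BL/6N strain that lacked Pnpla7, which encodes a lysophospholipase, with wild-type mice, all at 4 weeks of age. The 4 groups were labelled Pnpla7-/- liver, wild-type liver, Pnpla7-/- white adipose tissue (WAT) and wild-type WAT, and each was 1 one-colour Agilent array hybridised with equal amounts of RNA pooled from 5 animals. The sources used here do not give the fat depot, the sex of the animals or the time of day at which tissues were taken.

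Since a group is a single array, no difference below has a replicate check or a p-value. Levels are the log2 of the scanner software's processed signal minus the log2 of the array's 75th percentile, so a level of 0 equals that percentile. Differences are log2 differences, labelled knockout minus wild type or WAT minus liver, and a gene was counted where the difference reached 2-fold. The error beside a difference is the pooled SD between different probes of one gene, 0.20 in liver and 0.23 in WAT for knockout minus wild type, and it does not cover variation between animals. The scanner software's own error model gave a median error of 0.20 in both tissues, and differences of probes printed as repeat spots had a typical SD of 0.09 (liver) or 0.08 (WAT). Between 65.5% and 72.6% of the spots that were not controls lay well above background, 0 were saturated, and all 13 clock probes lay well above background on all 4 arrays. Pnpla7 itself was at 2.996 in labelled-knockout liver, against 3.176 in wild-type liver, and at -1.425 in labelled-knockout WAT, against -0.436 in wild-type WAT. The sources used here do not say which part of the gene was disrupted, so these levels are no check on genotype. Arrays with a Pnpla7-/- label are therefore named labelled knockout.

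In the mammalian clock, ARNTL (also called BMAL1) and CLOCK bind E-boxes as a dimer and switch on the Per, Cry, Nr1d and Dbp genes. PER and CRY proteins return to the nucleus and block that dimer, NR1D1 and NR1D2 (REV-ERB alpha and beta) repress Arntl through ROR response elements, and DBP, HLF and TEF act on D-boxes of genes further downstream. In liver and fat, transcripts of the activators and of the E-box genes peak at different times of the day.

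Some of the promoters hold letters of such elements, and these are printed as a description of the sequence. RefSeq promoter windows of the GRCm38.p6 build, from 250 bases before to 50 bases after an annotated start, matched 9 of the 10 genes in 13 windows. Per2 had no entry. Both strands were searched for the E-box CACGTG, the related E-prime box CACGTT, the D-boxes TTATGTAA and TTATGCAA, the core of the ROR response element TAGGTCA and the cyclic AMP response element TGACGTCA. None of these matches overlapped another. Among all 32851 windows of this length the shares with a match were 7.15%, 4.68%, 0.938%, 0.743%, 2.61% and 1.79% in that order. Of the 13 clock gene windows 2, 2, 1, 1, 1 and 1 had a match, in the same order. These counts are small and were not tested. Capitals mark the matches, and each sequence reads 5′ to 3′ on the gene's own strand.
Cry1, minus strand, chr10:85185055-85185304: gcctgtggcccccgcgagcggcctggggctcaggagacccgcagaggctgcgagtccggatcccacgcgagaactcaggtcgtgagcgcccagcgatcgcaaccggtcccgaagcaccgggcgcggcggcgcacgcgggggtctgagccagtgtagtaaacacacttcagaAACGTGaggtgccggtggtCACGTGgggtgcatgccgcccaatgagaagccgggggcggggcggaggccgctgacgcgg
Per1, plus strand, chr11:69098699-69098948: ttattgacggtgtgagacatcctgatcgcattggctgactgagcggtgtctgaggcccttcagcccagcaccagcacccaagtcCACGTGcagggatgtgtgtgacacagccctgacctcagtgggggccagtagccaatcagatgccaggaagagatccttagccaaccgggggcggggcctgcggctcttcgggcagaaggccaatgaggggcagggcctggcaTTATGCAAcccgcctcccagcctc
Per3, minus strand, chr4:151044666-151044915: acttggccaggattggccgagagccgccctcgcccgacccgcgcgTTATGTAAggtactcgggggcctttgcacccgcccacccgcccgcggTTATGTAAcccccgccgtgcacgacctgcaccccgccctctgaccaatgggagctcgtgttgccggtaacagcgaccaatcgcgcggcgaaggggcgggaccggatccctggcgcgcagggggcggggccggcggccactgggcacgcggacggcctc
Nr1d1, minus strand, chr11:98775378-98775627: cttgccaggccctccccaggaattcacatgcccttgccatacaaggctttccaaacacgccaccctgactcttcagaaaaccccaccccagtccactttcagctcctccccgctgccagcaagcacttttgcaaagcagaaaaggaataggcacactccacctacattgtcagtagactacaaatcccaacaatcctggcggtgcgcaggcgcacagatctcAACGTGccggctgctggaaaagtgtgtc
Hlf, minus strand, chr11:90390918-90391167: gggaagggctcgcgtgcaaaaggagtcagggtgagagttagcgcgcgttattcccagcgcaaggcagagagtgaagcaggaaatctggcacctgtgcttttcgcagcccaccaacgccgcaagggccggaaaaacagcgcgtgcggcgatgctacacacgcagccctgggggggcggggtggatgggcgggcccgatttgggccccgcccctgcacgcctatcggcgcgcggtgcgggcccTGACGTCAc
Arntl, plus strand, chr7:113207531-113207557: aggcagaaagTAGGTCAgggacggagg

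Cry1 held an E-prime box, read on the other strand as AACGTG, and an E-box within a short stretch, with first bases at -79 and -60 from the start. Per1 held an E-box at -166 and a D-box at -24, and Per3 held 2 D-boxes at -205 and -158. Nr1d1 held 1 E-prime box, also on the other strand, at -28. Arntl held the ROR element core, the target sequence of the NR1D receptors, at 31 bases into its transcript, and Hlf held a cyclic AMP response element at -9. The windows of Clock, Nr1d2 and Dbp had none of these letters, which says only that they are not in these windows. A match describes the sequence and is not a measured binding site.

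**Figure D1:**
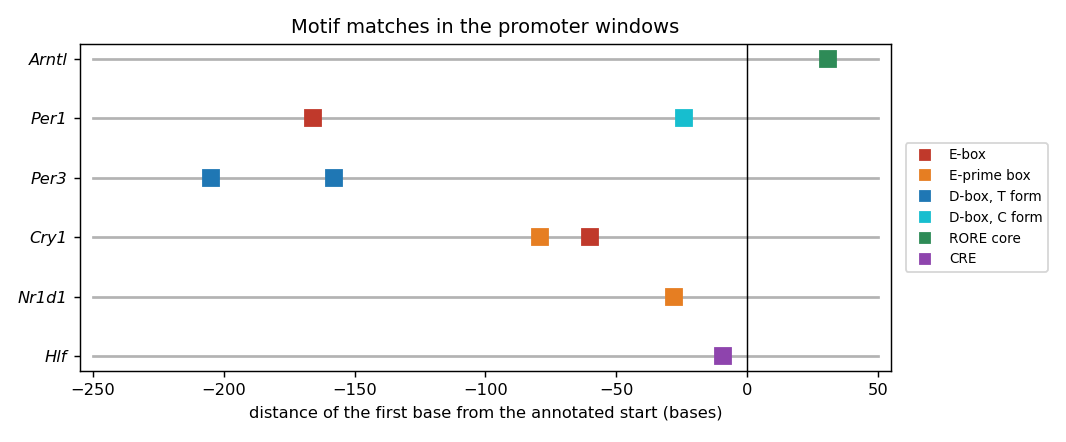
Motif matches in RefSeq promoter windows of 6 clock genes. The horizontal axis is the distance in bases of a match's first base from the annotated start, each grey line is 1 window, and coloured squares are matches of the 6 motifs, with 2 D-boxes in Per3 and an E-prime box beside an E-box in Cry1.

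Both activators were lower in labelled-knockout WAT and slightly higher in labelled-knockout liver. Arntl, the rhythmically transcribed part of the dimer, was read by a probe at chr7:120457261-120457320 on mm9, the build of the array's annotation. Its level was -3.56 in labelled-knockout WAT, against -2.74 in wild-type WAT, a difference of -0.82 ± 0.23 (probe SD), or 1.76-fold lower. In liver it was -3.03 in the labelled knockout and -3.29 in wild type, a difference of 0.26 ± 0.20. Among the 4 arrays Arntl was lowest in labelled-knockout WAT and highest in wild-type WAT. The liver difference turned to -0.20 with normexp background correction, which models the background of each array in place of the scanner software's own correction. Its direction there thus depended on the background setting. With the same setting the liver median of all genes fell to -0.21, against -0.04 in the main setting. Less that median in each setting, Arntl in liver ranged from 0.003 to 0.34. The WAT difference was between -0.85 and -0.57 in all 11 alternative settings.

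Clock, which encodes ARNTL's partner in the dimer, was read at chr5:76641377-76641436 on mm9. It was at -0.70 in labelled-knockout WAT and -0.28 in wild-type WAT, a difference of -0.42 ± 0.23. In liver it was at -1.02 in the labelled knockout, against -1.26 in wild type, a difference of 0.24 ± 0.20. Clock thus lay on the same sides as Arntl in both tissues, and it kept both signs in all 11 settings, from -0.45 to -0.40 in WAT and from 0.13 to 0.28 in liver. WAT minus liver for Clock was 0.31 in the labelled knockout, within the probe SD of 0.63 for that comparison. In wild type it was 0.98, where the probe SD was 0.66.

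The Per genes, which encode the PERIOD repressors, were level or lower in labelled-knockout liver and higher in labelled-knockout WAT, all by less than 2-fold. Per1, the period gene that also answers hormones and light, had 1 bright and 1 dim probe. Its bright probe was at 3.13 in labelled-knockout liver and 3.19 in wild-type liver, and at 3.72 in labelled-knockout WAT and 3.62 in wild-type WAT. The dim probe, annotated to a cDNA other than the RefSeq transcript, stayed between -5.37 and -5.08. As the mean of both probes, Per1 differed by -0.12 in liver and 0.18 in WAT, both within the probe SD. With normexp the liver value was -0.45 at an offset of 50 and -0.67 at an offset of 0.

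Per2 was at -0.61 in labelled-knockout liver and -0.61 in wild-type liver, a difference of -0.00. In WAT it was at -0.36 in the labelled knockout, against -0.80 in wild type, a difference of 0.44 ± 0.23, with a range of 0.40 to 0.47 over the alternative settings. Per2 therefore had its highest and its lowest level on the 2 fat arrays. Per3, the period gene with 2 D-boxes in the window above, was at -2.77 in labelled-knockout liver and -2.35 in wild-type liver, a difference of -0.42 ± 0.20. Per3 in WAT was at -1.74 in the labelled knockout and -2.06 in wild type, a difference of 0.32 ± 0.23. Its signs held in all 11 settings in both tissues, and with normexp the liver value was -0.63 at an offset of 50 and -0.73 at an offset of 0.

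Cry1, the cryptochrome repressor that is transcribed late in the cycle, had the largest knockout difference of the 10 genes in either tissue under the main setting. In WAT it was at -3.84 in the labelled knockout, against -5.27 in wild type, a difference of 1.43 ± 0.23, or 2.70-fold higher. In liver it was at -4.01 in the labelled knockout, against -4.56 in wild type, a difference of 0.55 ± 0.20. It was the 1 member above 0 in both tissues. Its probe lies at chr10:84594731-84594790 on mm9, and the wild-type WAT level lay near the lowest level called well above background on that array, -6.15. With normexp at an offset of 50 the WAT difference was 0.85, under 2-fold, and the liver difference turned to -0.36.

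The genes for the REV-ERB receptors differed by less than 2-fold in both tissues. Nr1d1 was at -0.67 in labelled-knockout liver, against -0.25 in wild-type liver, a difference of -0.42 ± 0.20. In WAT it was at 0.19 in the labelled knockout and 0.29 in wild type, a difference of -0.11, within the probe SD. Nr1d1 was the 1 member below 0 in both tissues. Its WAT minus liver difference was 0.85 in the labelled knockout, where the probe SD was 0.63. In wild type that difference was 0.55, within the probe SD of 0.66. Nr1d2 had 2 probes that gave -0.25 and -0.24 in liver and 0.17 and 0.13 in WAT. In liver Nr1d2 averaged 1.51 in the labelled knockout and 1.75 in wild type, and in WAT 1.27 in the labelled knockout and 1.12 in wild type. Less the median of all genes in each setting, the liver difference of Nr1d2 ranged from -0.20 to 0.04, so that its sign depended on the setting.

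The output factors were lower in labelled-knockout liver and higher in labelled-knockout WAT. Dbp, a D-box activator and one of the most strongly cycling transcripts of liver, had 2 probes that read alike, with -0.39 and -0.34 in liver and 0.68 and 0.62 in WAT. Averaged over them, Dbp was at 4.76 in labelled-knockout liver and 5.13 in wild-type liver, a difference of -0.37 ± 0.20. Its WAT levels were 5.33 in the labelled knockout and 4.68 in wild type, a difference of 0.65 ± 0.23. The highest and the lowest Dbp levels were thus both on fat arrays, with the liver arrays between them. Over the alternative settings Dbp ranged from -0.40 to -0.21 in liver and from 0.47 to 0.67 in WAT. Less the median of all genes in each setting, its liver difference ranged from -0.33 to -0.07, the latter within the probe SD.

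Hlf, the hepatic leukemia factor of the same PAR bZIP family as DBP, was at 1.23 in labelled-knockout liver and 1.67 in wild-type liver, a difference of -0.44 ± 0.20. Hlf in WAT was at 0.48 in the labelled knockout, against -0.60 in wild type, a difference of 1.08 ± 0.23, or 2.12-fold higher. The WAT difference of Hlf was between 1.04 and 1.15 and the liver difference between -0.47 and -0.35 in all 11 settings. Its probe lies at chr11:90200696-90200755 on mm9. Hlf varied most of the members over the 4 arrays, by 2.27 on the log2 scale, against a median range of 0.74 for 18466 genes measured on all of them.

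**Figure D2:**
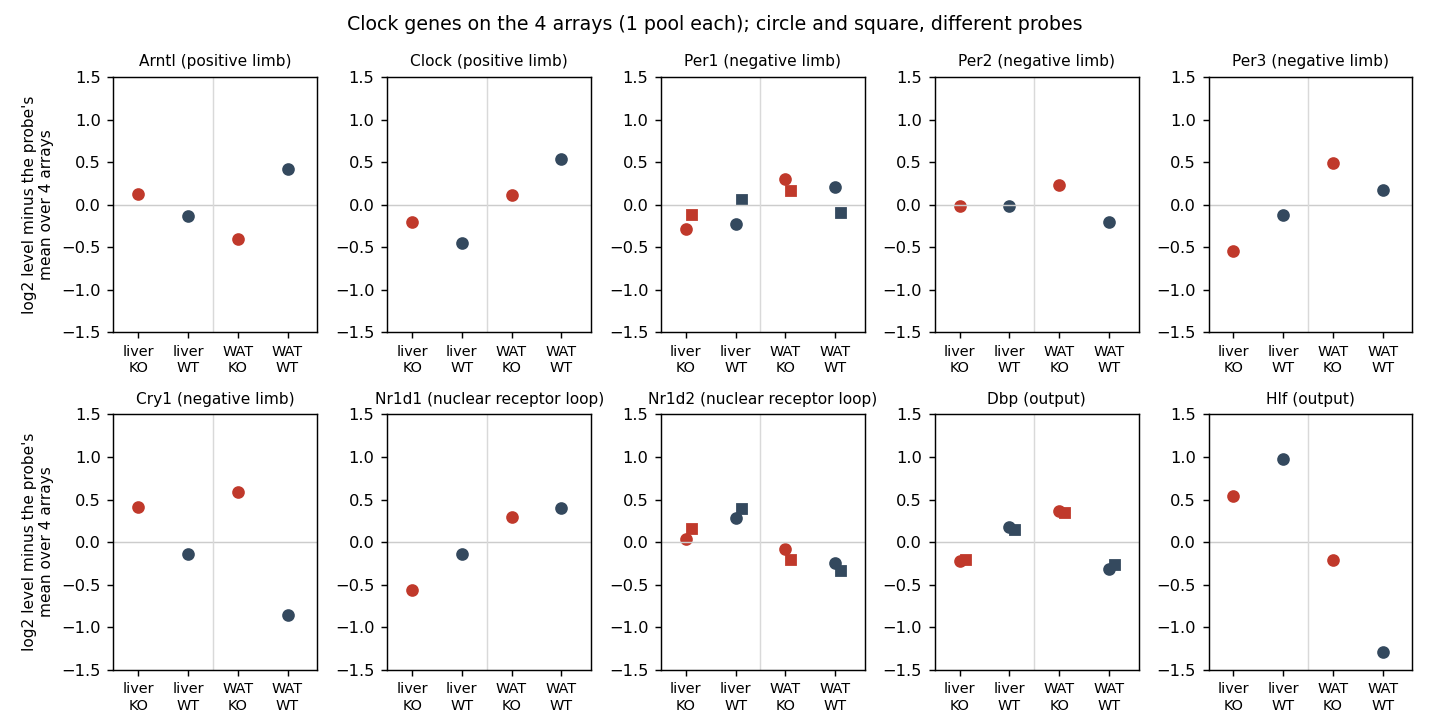
Levels of the 10 clock genes on the 4 arrays. The vertical axis is each probe's log2 level minus its own mean over the 4 arrays, red points are labelled-knockout and dark points wild-type arrays, and circle and square are different probes of a gene. Arntl and Clock are lower and Per2, Per3, Cry1, Dbp and Hlf higher in labelled-knockout than in wild-type WAT.

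Counted over the 10 genes, 0 reached 2-fold in liver, against a background of 1.55% of 19387 genes that far up and 0.898% that far down. In WAT 2 of 10, Cry1 and Hlf, were at least 2-fold higher and 0 lower, against 2.02% of 20148 genes higher and 1.81% lower. The median of the 10 was -0.18 in liver, where the median of all genes was -0.04, and 0.25 in WAT, where it was 0.03. In liver 7 of the 10 lay below 0, as did 57.1% of all genes, and in WAT 7 lay above 0, as did 54.7% of all genes.

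Gaps between members of 1 pair of arrays do not depend on the constant by which an array is scaled. In liver the output factors averaged -0.40 and the activators 0.25, a gap of -0.66, between -0.66 and -0.28 in the alternative settings. In WAT the output averaged 0.87 and the activators -0.62, a gap of 1.49, between 1.30 and 1.49 in the alternatives. The gap had opposite signs in the 2 tissues in the main setting, with normexp, with quantile normalization and with each gene's brightest probe. The other alternatives left it unchanged, so they add no check of it. The Per genes lay -0.43 from the activators in liver and 0.93 in WAT, and the nuclear receptor genes -0.58 and 0.64.

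**Figure D3:**
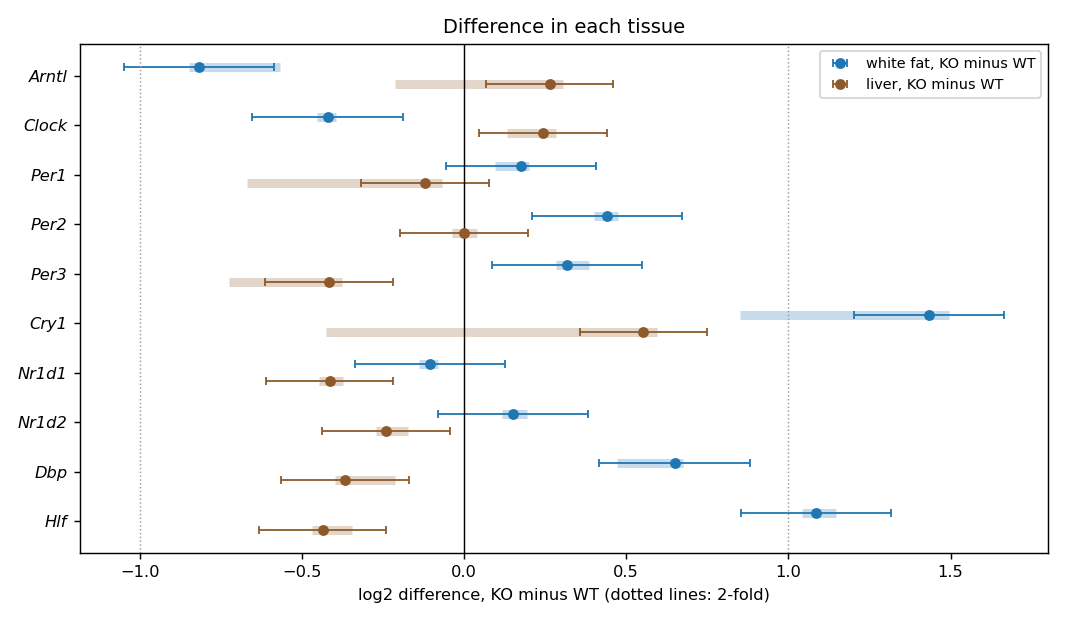
Log2 difference of labelled knockout minus wild type for each clock gene, in WAT (blue) and in liver (brown). Points are the main values, thin bars the pooled SD between probes of a gene (0.23 in WAT, 0.20 in liver), and wide pale bars the range over 11 alternative settings, which crosses 0 for Arntl, Per2 and Cry1 in liver.

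The 2 tissues were then set side by side gene by gene. They share no array, but the sources used here do not say whether the same animals gave both. In 8 of the 10 genes the liver and WAT differences had opposite signs, as they did in 56.9% of 18475 genes measured in both. In 5 of the 10, Arntl, Clock, Per3, Dbp and Hlf, both differences were also past 1 probe SD, which held for 13.3% of all genes. Taken as WAT effect minus liver effect, the difference was 1.52 for Hlf, 1.02 for Dbp, 0.88 for Cry1 and 0.73 for Per3, and -0.67 for Clock and -1.08 for Arntl. Hlf and Dbp were thus at least 2-fold apart in 1 direction, against 3.26% of all genes, and Arntl in the other, against 4.15%. Of the 11 alternative settings Hlf reached 2-fold in 11, Arntl in 9, Dbp in 6 and Cry1 in 2. The difference between tissues was not tested.

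**Figure D4:**
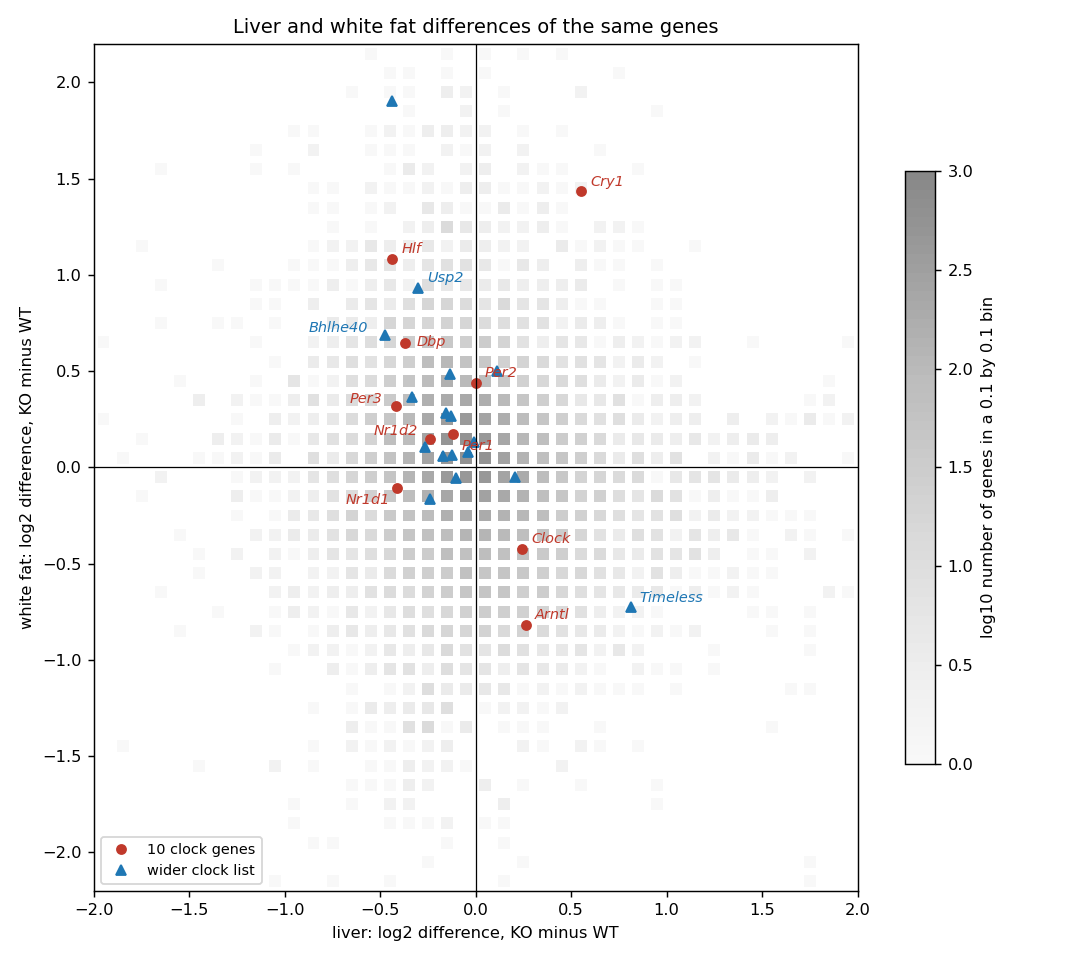
Liver difference (horizontal) against WAT difference (vertical), labelled knockout minus wild type on the log2 scale. Red circles are the 10 clock genes, blue triangles 17 genes of a wider clock list, and grey squares bins of all genes shaded by the log10 of their number, with genes beyond the axes not drawn. Clock and Arntl lie at the lower right, Hlf, Dbp and Per3 at the upper left.

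Wild-type WAT and wild-type liver differed by less than 2-fold in 9 of the 10 genes. Hlf was the exception, at -0.60 in wild-type WAT, against 1.67 in wild-type liver, a difference of -2.27 or 4.82-fold lower in WAT. On the labelled-knockout arrays the same difference was -0.75. In wild type 14.2% of all genes were at least 2-fold lower in WAT, and 16.5% were higher, as was none of the members. Clock was 1.97-fold higher in wild-type WAT and 1.24-fold higher in labelled-knockout WAT than in the liver of the same genotype. Per3 was 2.04-fold higher in labelled-knockout WAT than in labelled-knockout liver, where 16.4% of all genes were at least 2-fold higher and 12.4% lower, and 1.23-fold higher in wild type. The sign of WAT minus liver differed between genotypes for Arntl, at -0.53 in the labelled knockout and 0.55 in wild type, for Dbp, at 0.56 and -0.46, and for Cry1, at 0.17 and -0.71. Per2 did so too, at 0.25 and -0.19, which makes 4 of 10 genes, against 17.7% of all genes. With quantile normalization Dbp in wild type was at 0.17 and Cry1 in the labelled knockout at -0.06, so that neither gene differed in sign between genotypes there, and with median centring Cry1 in the labelled knockout was at -0.02. The probe SD for a comparison of tissues was 0.63 in the labelled knockout and 0.66 in wild type, so these values, except that of Cry1 in wild type, lay within it.

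**Figure D5:**
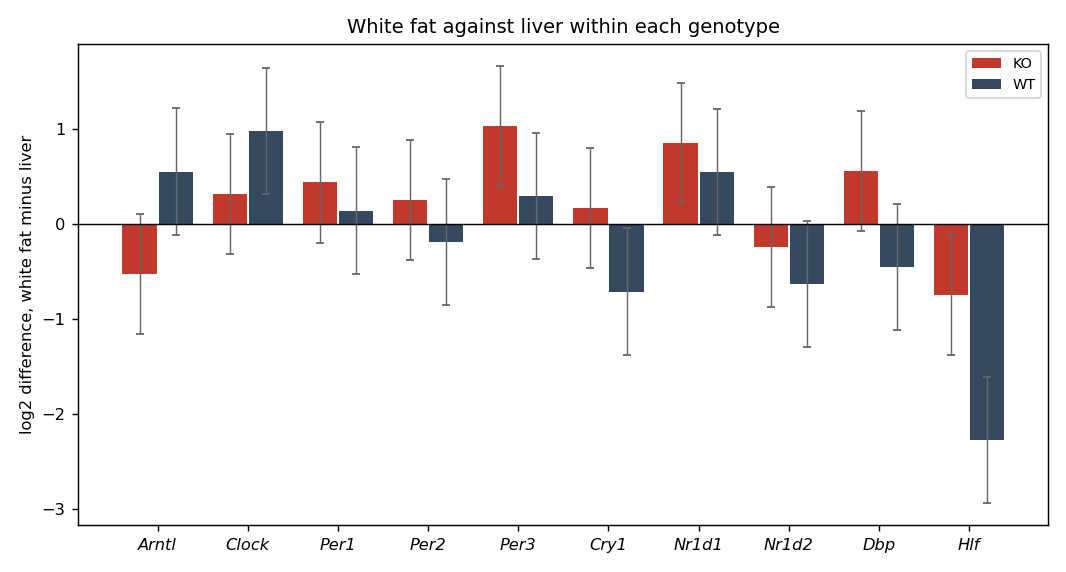
Log2 difference of WAT minus liver for the 10 clock genes on the labelled-knockout arrays (red) and the wild-type arrays (dark). Bars start at 0 and error bars are the pooled SD between probes of a gene (0.63 and 0.66). Hlf in wild type has the longest bar, and Arntl, Per2, Cry1 and Dbp differ in sign between genotypes, which for Cry1 and Dbp did not hold with quantile normalization.

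A wider list of 20 further clock genes was read in the same way. Of these, 18 were measured in liver, with 0 at least 2-fold different, against 1.55% of all genes higher and 0.898% lower. Their liver median was -0.15, against -0.04 for all genes. In WAT 18 were measured, with 1 at least 2-fold higher and 0 lower, against 2.02% and 1.81% of all genes. Their WAT median was 0.20, against 0.03 for all genes. Among 17 genes measured in both tissues, 12 were below 0 in liver and above 0 in WAT, as were 6 of the 10 clock genes and 34.3% of all genes. Of the 17, 14 had opposite signs in the 2 tissues, as did 56.9% of all genes. In 5 of these both differences were past 1 probe SD, which held for 13.3% of all genes.

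Several genes of the wider list lay below 0 in liver and above 0 in WAT, as Dbp did. Tef, the third PAR bZIP factor, differed by -0.33 in liver and 0.36 in WAT, and Bhlhe40, an E-box repressor also known as DEC1, by -0.48 and 0.69. Usp2, a ubiquitin protease with a strong daily rhythm in liver, differed by -0.30 and 0.93, and Ciart, a repressor of the CLOCK dimer, by -0.13 and 0.27. Rora and Rorb, which encode ROR alpha and beta, differed by -0.16 and -0.13 in liver and by 0.29 and 0.48 in WAT. All of these were under 2-fold, and the liver differences of Ciart, Rora and Rorb lay within the probe SD of 0.20. Rorb in liver rested on 1 of 2 probes, at -5.84 in the labelled knockout and -5.71 in wild type. The lowest levels called well above background on those arrays were -6.06 and -5.85. Nfil3, the D-box repressor that opposes DBP, was above 0 in both tissues, at 0.11 in liver and 0.50 in WAT.

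Timeless, the mammalian homologue of a fly clock gene that acts in DNA replication, had the opposite pair of signs, at 0.81 in liver and -0.73 in WAT. The second cryptochrome gene Cry2 differed by -0.04 in liver and 0.08 in WAT, and Arntl2, a paralogue of Arntl, by -0.12 and 0.06. The kinase genes Csnk1d and Csnk1e, whose products mark PER proteins for decay, differed by -0.17 and 0.21 in liver and by 0.06 and -0.05 in WAT. Btrc, a ligase subunit that removes PER proteins, differed by -0.01 in liver and 0.13 in WAT, and the PER-associated factors Nono and Wdr5 by -0.10 and -0.27 in liver and by -0.06 and 0.11 in WAT. Fbxl21 was measured in liver only, at -0.43, and Bhlhe41, or DEC2, in WAT only, at 0.28. The probe of Npas2, which can stand in for CLOCK, was not well above background on any array.

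Genes known to be timed by the clock were taken as a further list of 22, of which 21 had a probe. In liver 1 of 21 was at least 2-fold higher and 1 lower, against 1.55% and 0.898% of all genes, and the median was 0.06, against -0.04 for all genes. In WAT 3 of 19 were higher and 1 lower, against 2.02% and 1.81% of all genes, and the median was 0.44, against 0.03 for all genes. The genes at least 2-fold higher in WAT were Elovl3, a fatty acid elongase that is also on the thermogenic list below, at 5.05, Cyp2b10 at 2.37 and Gys2, the liver glycogen synthase, at 1.14. Nampt, the rate-limiting enzyme of NAD salvage, followed at 0.84 and differed by 0.04 in liver.

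Of the timed genes, 5 measured ones are known targets of the PAR bZIP factors in liver. Cyp2b10, a drug-metabolising P450, differed by -1.42 in liver and 2.37 in WAT, with the signs of Dbp and Hlf. Por, the P450 reductase, differed by -0.25 and 0.44, and Alas1, the first enzyme of heme synthesis, by 0.10 and 0.82. Nr1i3, the CAR receptor, differed by -0.44 in liver and by -0.66 in WAT, and Cyp2a4, whose probes may also read its near-identical neighbour Cyp2a5, by -0.90 and -1.70. The WAT difference of Nr1i3 rested on 1 of 2 probes, at -3.84 in the labelled knockout. The list thus held 4 of 5 genes below 0 in liver, where 57.1% of all genes were, and 3 of 5 above 0 in WAT, where 54.7% of all genes were. Lpin1 and Ppara, timed regulators of lipid use, differed by -0.85 and -0.22 in liver and by 0.48 and 0.70 in WAT.

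Markers of other cell types differed between the same 2 fat arrays. Of all genes, 2.02% were at least 2-fold higher there, 1.81% were at least 2-fold lower, and 54.7% lay above 0. All 12 skeletal muscle markers were at least 2-fold higher in labelled-knockout WAT, with a median difference of 4.00, and their summed level was 51.2 times the 75th percentile, against 3.61 times in wild-type WAT. All 8 thermogenic adipocyte markers were also at least 2-fold higher, with a summed level of 217 against 61.1 times the 75th percentile. The muscle list was well above background for 12 of 12 markers on both fat arrays, so no defining marker was at 0. Adipocyte markers had a median difference of 0.16, with 1 of 10 at least 2-fold lower, Lep. Macrophage markers were all below 0, with a median of -0.84 and a summed level of 4.11 against 7.45, and 5 of 5 endothelial markers were below 0, with a median of -0.44. Of 4 measured epithelial markers 2 were at least 2-fold higher, and 6 of 10 hepatocyte markers at least 2-fold lower. The part of these cells in the WAT differences of the clock genes was not tested. In pooled tissue RNA, fewer cells of a type and less RNA per cell cannot be told apart.

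In liver the hepatocyte markers had a median difference of -0.28, against -0.04 for all genes. Of the 10 markers 9 lay below 0, as did 57.1% of all genes. None was at least 2-fold lower, against 0.898% of all genes. Among these markers the albumin gene Alb differed by -0.28 and Ahsg, which encodes fetuin-A, by -0.37. Of 10 adipocyte markers 6 were measured in liver, 3 above and 3 below 0, with a median of -0.03. Of these, 1 was at least 2-fold higher, Cidec at 2.46, against 1.55% of all genes. Of 6 measured thermogenic markers 1 was at least 2-fold higher, Cidea at 2.44, again against 1.55% of all genes. Adipoq, Lep and Cfd were not well above background in liver. The part of these cells in the liver differences was not tested. Of the 10 clock genes, 7 lay below 0 in liver under the main setting and 3, Arntl, Clock and Cry1, above.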

How the data were processed

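RNA pools of liver and white adipose tissue were measured on 4 one-colour Agilent arrays. Spot intensity values were deposited as extracted with Agilent Feature Extraction 11.0.1.1, per the submitters' processing notes. Background and multiplicative trends were corrected and arrays were not scaled to each other, per the file headers. A deposited table of the whole series held a linear signal, and on checking each column equalled the scanner's processed values over a single constant (100% of spots within 1%), with column medians of 0.0751 and 0.0737 for labelled-knockout and wild-type liver and 0.0875 and 0.0876 for labelled-knockout and wild-type WAT. It served as an alternative.

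From the deposited flags, which are other marks of 0 or 1 per spot, outlier spots (between 79 and 110 per array) were left out. The log2 of the intensity minus the array's 75th percentile over non-control spots was averaged over the spots of a probe, and differences were averaged over a gene's probes with more than a 0.5 share of spots well above background on both arrays and none saturated. Gene names are those in the files. Gm129 and Ccrn4l are given under their current RefSeq symbols, Ciart and Noct. All 4 arrays, in Python 3.11.15 with normexp and quantile normalization from limma 3.58.1, gave no residual degrees of freedom, so no test was made. The steps were tested on simulated data. The members and lists were chosen with earlier results of these data known. All members were named in full, the wider clock list wherever measured (some listed genes are counted with their lists but not reported here by name), and other lists by counts with the genes at least 2-fold different and the largest. Lpin1, Ppara, Alb, Ahsg, Lep, Cdkn1a and Sgk1 were chosen after their values were seen.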

Additional observations from a re-analysis of the deposited data

Results flagged for a closer look

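In 5 genes the liver and WAT differences lay on opposite sides of 0, each past the pooled SD between probes. WAT effect minus liver effect was 1.52 for Hlf, 1.02 for Dbp and 0.73 for Per3, and it was -0.67 for Clock and -1.08 for Arntl. Each rests on 1 array per group, and the difference between the tissues was not tested. The liver side of Arntl turned with normexp, as given below. The signs of Clock, Per3, Dbp and Hlf held in both tissues in the 11 alternative settings. Normexp also lowered the liver median of all genes, as given below. Less the median of all genes in each setting, the liver difference ranged from 0.003 to 0.34 for Arntl. For Clock it ranged from 0.24 to 0.36 and for Per3 from -0.51 to -0.34. For Dbp it ranged from -0.33 to -0.07 and for Hlf from -0.40 to -0.14.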

How the results depend on the processing

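Across 11 alternatives, the medians over the 10 genes kept within the pooled SD between probes in each comparison. Of 550 values for single genes, 532 moved by less than that SD and 18 by more. The sign changed in 13 of the 550. In 4 of these the move was larger than the SD. The other 9 moved by less and were WAT minus liver for Per1, Per3 and Dbp in wild type and Cry1 in the labelled knockout, and Per2 in liver. With normexp in place of the processed signal, Arntl in liver turned to -0.20 (offset of 50) and -0.21 (offset of 0), and Cry1 in liver to -0.36 and -0.43. With normexp the median of all genes in liver was at -0.21 (offset 50) and -0.22 (offset 0), against -0.04 in the main setting. The cause was not tested. The split of all genes at least 2-fold higher and lower in liver was 300 and 174 in the main setting, 112 and 332 with normexp at offset 50, and 125 and 2146 at offset 0. In WAT it was 407 and 365 in the main setting, and 235 and 179 or 329 and 234 with normexp.

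Counts of 2-fold clock genes were small and moved by 1. Labelled knockout over wild type in WAT had 1 gene higher with normexp at offset 50, against 2. WAT over liver in the labelled knockout had 0 higher with normexp at offset 50, with quantile normalization and with median centring, against 1. In wild type it had 2 lower with normexp at offset 0 and with quantile normalization, against 1, and 1 higher with the percentile taken over probes well above background on all arrays, against 0. WAT effect minus liver effect had 0 lower with normexp at either offset, against 1. It had 1 higher with quantile normalization, with that percentile and with the brightest probe, and 3 with normexp at offset 0, against 2. With normexp Dbp was under 2-fold there, at 0.88 (offset 50) and 0.89 (offset 0). Cry1 was past it, at 1.21 and 1.64, as was Per3 at offset 0, at 1.05. The signal over background limits Cry1, Arntl and the second Per1 probe most, as the dimmest of the probes. No paired analysis was possible because each group had 1 array.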

Other observations

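Signals that can set the peripheral clock were read as 2 further lists. Of 15 glucocorticoid-induced genes, none reached 2-fold higher in liver and 2 were at least 2-fold lower, against 1.55% and 0.898% of all genes. These were the phosphatase gene Dusp1 at -1.04 and the metallothionein gene Mt1 at -1.49, whose probes read -2.76 and -0.23. The list's median was -0.21 in liver, against -0.04 for all genes. In WAT it was 0.01, against 0.03 for all genes. All 15 of 15 genes were within 2-fold there, where 2.02% of all genes were at least 2-fold higher and 1.81% lower. Fkbp5, a sensitive glucocorticoid target, differed by 0.01 in liver and 0.44 in WAT, and Tsc22d3, also known as GILZ, by -0.80 and -0.25. In liver 11 of the 15 lay below 0, where 57.1% of all genes were, and 4 above. The highest liver differences were those of Cdkn1a at 0.82, with probes between 0.28 and 1.37, and Sgk1 at 0.52. Of 6 measured temperature-responsive genes, 0 reached 2-fold in liver, against 1.55% of all genes higher and 0.898% lower. In WAT 5 lay below 0, where 54.7% of all genes lay above 0. The chaperone gene Hsph1 was at -1.08, and 1.81% of all genes were at least 2-fold lower. Dnajb1 was at -0.50, Hsp90aa1 at -0.33 and Hspa8 at -0.31, and the cold-inducible gene Cirbp lay above 0 at 0.46. Rbm3, which is also cold-inducible, was at -0.24, with its 3 probes between -0.94 and 0.13.

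Genes with the most similar pattern over the 4 arrays were found by the root mean square difference of levels after each gene's own mean was removed, among 18465 other genes. For Dbp they were 4931406C07Rik (0.022), Gm4013 (0.024) and a probe with no gene name (0.036). For Arntl they were Clec4a1 (0.015), Creb3l2 (0.022) and A130071D04Rik (0.025). For Cry1 they were Il28ra (0.144), a transcript with no gene symbol (0.150) and Cntfr (0.152). With 4 arrays such likeness describes these pools only.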
